A study of Mus musculus with 2 samples.

Results

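Tenocytes, the fibroblasts of tendon, were examined in single cell RNA-seq (scRNA-seq) of hind limb muscle from mdx mice, the dystrophin-deficient strain used to model Duchenne muscular dystrophy. A cell was selected on its own counts: at least 500 genes, at least 3 of the 7 genes Tnmd, Kera, Chad, Scx, Cilp2, Col11a1 and Thbs4 detected, a sum of at least 2 unique molecular identifiers (UMIs, tags that count each captured RNA once) of Tnmd, Kera and Chad, at least 3 UMIs of Fmod, and 0 UMIs of Ptprc, Cdh5 and Pax7, the genes marking leukocytes, endothelial cells and muscle stem cells (MuSCs). By this rule 247 of the 7664 cells with at least 500 genes (8010 barcodes in all) were tenocytes, 141 of them in the Ctrl library and 106 in the dKO library. Ctrl mice carried Pax7CreERT2/R26YFP with Yy1+/+ on the mdx background (C57BL/10 ScSn), and dKO mice carried Pax7CreERT2/R26YFP with Yy1 f/f on that background, so both groups had the Cre driver, the YFP reporter and the dystrophin mutation. Both groups received tamoxifen for 5 days at 1.5 months of age, and muscle was collected 1 month later. The Cre is driven by Pax7, a gene of MuSCs, and whether it acted in tenocytes was not tested. Each library was 1 pool of 3 mice of 1 genotype, so there were no replicates, no test between groups was possible, and differences between genotypes cannot be told apart from differences between the pools. Values below are CPM, the UMIs of a gene summed over the tenocytes of a library and scaled to a total of 1000000, with 95% intervals, exact Poisson for sums and exact binomial for shares, which cover counting error only.

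Tendon transmits the force of muscle to bone through parallel bundles of type I collagen, and tenocytes make and maintain that matrix. The transcription factor Scx (scleraxis) marks the tendon lineage from the embryo on, and Mkx (Mohawk) is a further tendon regulator. Tnmd (tenomodulin) is a membrane glycoprotein typical of mature tenocytes. Fmod (fibromodulin), Kera (keratocan) and Chad (chondroadherin) are leucine-rich repeat proteins, and the first 2 of them bind collagen fibrils and regulate their width. Thbs4 and Comp are thrombospondins of the tendon matrix, Cilp2 is a matrix protein of cartilage and tendon, and Angptl7 is a secreted angiopoietin-like protein. In muscle, the stromal cells most like tenocytes are fibro-adipogenic progenitors (FAPs), which carry Pdgfra and line the space between fibers.

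Promoter sequence is shown for the 2 marker genes that held the E-box letters bound by basic helix-loop-helix factors such as scleraxis. The 250 bases before the RefSeq start (GRCm38.p6) were searched for CATCTG or its reverse complement CAGATG, given here in capitals. Of the 32851 promoters searched, 14.4% held the motif, and of the 9 marker and rule genes 8 had a promoter entry and 2 held it, Fmod and Angptl7 (no entry for Scx). Each sequence reads 5′ to 3′ on the strand of the gene, Fmod from chr1:134037004-134037253 (+ strand, match 183 bases before the start) and Angptl7 from chr4:148500463-148500712 (- strand, 87 bases before the start). A match describes these letters and not a bound site.
Fmod: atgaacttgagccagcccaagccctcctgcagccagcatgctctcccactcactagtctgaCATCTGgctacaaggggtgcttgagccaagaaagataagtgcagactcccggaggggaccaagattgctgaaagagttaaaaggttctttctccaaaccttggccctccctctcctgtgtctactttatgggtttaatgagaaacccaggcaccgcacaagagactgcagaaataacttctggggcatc
Angptl7: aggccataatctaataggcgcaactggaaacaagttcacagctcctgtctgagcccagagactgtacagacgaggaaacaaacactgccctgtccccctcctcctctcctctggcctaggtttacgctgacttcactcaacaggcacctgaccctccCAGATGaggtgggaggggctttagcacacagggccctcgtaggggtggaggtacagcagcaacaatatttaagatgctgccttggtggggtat

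Tenocytes were 3.25% of the cells in the Ctrl library (2.74-3.82%) and 3.18% in the dKO library (2.61-3.84%). The shares differed by -0.0685 percentage points with an interval from -0.876 to 0.76, so no difference in share was detectable at this depth. The cells were well covered in both libraries. UMIs per tenocyte ranged from 2848 through a median of 10208 to 32447 in Ctrl and from 1088 through 10488.5 to 31587 in dKO, and genes per tenocyte from 1218 through 2786 to 5254 and from 545 through 2743.5 to 5261. In all, 1591736 of the 45556596 Ctrl UMIs and 1169951 of the 33815155 dKO UMIs came from tenocytes. The 2 libraries shared 7 cell barcodes, of which 0 were tenocytes. All 7 genes of the detection criterion were found in 47 Ctrl and 36 dKO tenocytes, and the median tenocyte held 6 of them in each library. At the edges of the rule, 8 Ctrl and 4 dKO tenocytes held exactly 3 of the 7 genes, 1 and 3 held the minimum sum of 2, and 2 and 3 held the minimum of 3 Fmod UMIs. Just outside it, 6 Ctrl and 9 dKO cells failed only the 3-gene criterion and 9 and 6 failed only the sum. The 16 and 8 cells that failed only the Fmod criterion had a median of 0 Fmod UMIs, while the 15 and 9 that failed only the exclusion genes had a median of 49 and 47 and carried Ptprc or Cdh5.

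The label was checked against the 7 tenocyte markers (Tnmd, Fmod, Kera, Chad, Scx, Cilp2 and Angptl7), 6 of which the rule had used and which are given as a description. FAPs were cells with at least 500 genes, at least 1 UMI of Pdgfra and 3 of Dcn, the same exclusion genes at 0, and not a tenocyte by the rule. Tnmd stood at 1776 CPM in Ctrl and 1851 CPM in dKO tenocytes, against 21.5 and 24.3 CPM in the 941 Ctrl and 990 dKO FAPs. Fmod stood at 8692 and 8761 CPM in tenocytes against 34.8 and 36.0 CPM in FAPs. Neither gene differed between the libraries beyond counting error, with log2 ratios dKO to Ctrl of 0.06 (-0.02 to 0.14) for Tnmd and 0.01 (-0.03 to 0.05) for Fmod. Chad was at 1010 and 974 CPM in tenocytes, and Kera at 435 and 465 CPM, with intervals that overlapped between the libraries for each gene. Scx, the lineage factor, was at 415 CPM in Ctrl and 358 CPM in dKO, a log2 ratio of -0.21 (-0.39 to -0.03). Mkx was at 96.1 and 75.2 CPM (log2 ratio -0.35, -0.75 to 0.03). Cilp2 went the other way, from 775 to 952 CPM (log2 ratio 0.30, 0.18 to 0.41). Angptl7, which the rule did not use, was at 2035 and 2121 CPM in tenocytes and at 18.1 and 9.83 CPM in FAPs. Thbs4 was at 11551 and 11112 CPM in tenocytes, but also at 1909 and 1654 CPM in FAPs, so of the rule genes it separated the cell classes least.

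**Figure D1:**
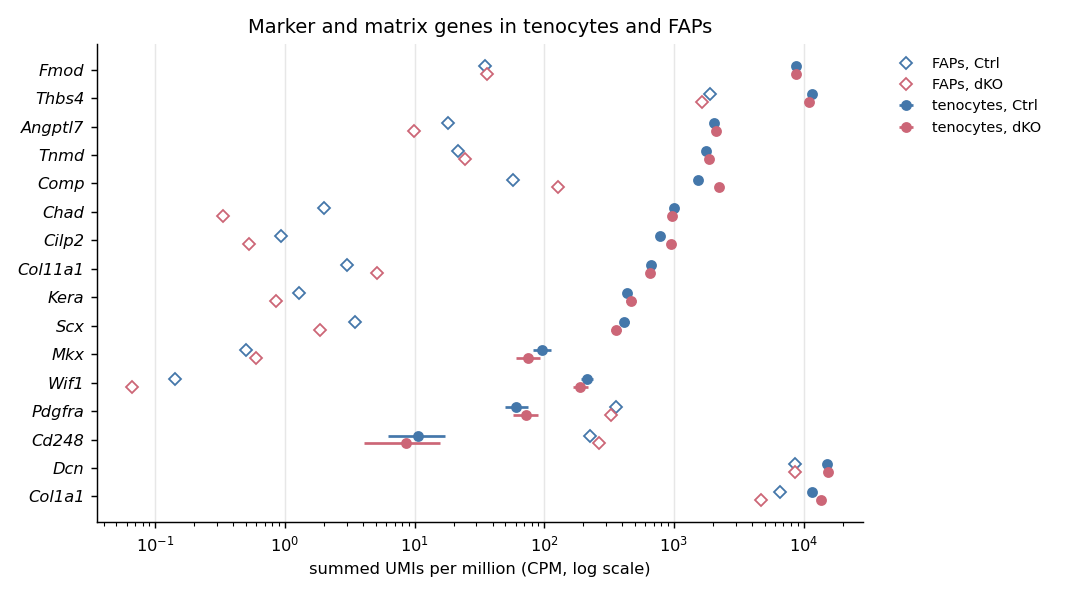
Levels of 16 marker and matrix genes as CPM of summed UMIs (log axis) in tenocytes (filled circles, bars are 95% Poisson intervals) and FAPs (open diamonds) of the Ctrl (blue) and dKO (red) libraries. Fmod, Tnmd, Chad, Cilp2 and Kera sit at far higher CPM in tenocytes than in FAPs, Dcn and Col1a1 are high in both, and Pdgfra and Cd248 are higher in FAPs.

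To compare shares of cells with a UMI at 1 depth, each tenocyte was thinned to 4000 UMIs. Below that depth lay 4 Ctrl and 13 dKO tenocytes, and 137 and 93 were kept. After thinning, Tnmd was found in 91.2% of Ctrl and 92.5% of dKO tenocytes, Scx in 59.1% and 53.8%, and Kera in 49.6% and 48.4%. Cells with Ptprc, leukocytes that should lack these genes, gave the background of free RNA at the same depth, which was 0.816% and 0.529% for Tnmd, 0.297% and 0.106% for Scx, and 0.0742% and 0.106% for Kera. Tnmd, Scx and Kera were in the rule, so their shares are a description, and Kera was still undetected in many tenocytes at 4000 UMIs. Mkx, which had no part in the rule, was found in 32.8% and 24.7% of thinned tenocytes and in 0.116% and 0.109% of thinned FAPs.

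Genes of other cell types were low, with exceptions. The 10 monocyte and macrophage markers, of which 0 were without a UMI, summed to 129 CPM in Ctrl and 70.9 CPM in dKO tenocytes, close to the 135 and 84.2 CPM of FAPs. The 8 endothelial markers summed to 44.0 and 10.3 CPM with Cdh5 at 0 by the rule, the 6 neutrophil markers to 28.9 and 4.27 CPM, the 8 smooth muscle and pericyte markers to 102 and 54.7 CPM, the 6 osteoblast markers to 9.42 and 5.98 CPM (Sp7 and Dmp1 at 0), the 7 chondrocyte markers to 167 and 76.9 CPM and the 11 muscle fiber markers to 24.5 and 19.7 CPM. Some Ctrl sums rested in part on 1 cell, which held 135 of 266 chondrocyte, 37 of 70 endothelial, 49 of 162 smooth muscle and pericyte and 11 of 15 osteoblast UMIs (1 cell per list). Erythroid and lymphocyte markers reached 1.88 and 1.26 CPM in Ctrl and 0 in dKO. The myogenic list stood at 607 and 609 CPM, but 83.5% of its UMIs were Sdc4, with Pax7, Myog and Myf5 at 0. The synovial lining list stood at 3932 and 5858 CPM, 82.5% of it Prg4 (lubricin), the gliding-surface proteoglycan that tendon makes too. FAP markers summed to 1097 and 1256 CPM in tenocytes, against 5193 and 6267 CPM in FAPs. The part of these levels in the results below was not tested unless a value is given there.

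Next, tenocytes were set against FAPs of the same library. These ratios describe cells that were chosen by expression, and no test was run on them. FAPs left out every cell that met the tenocyte rule. Low FAP levels of the rule genes, and of genes that go with them, follow in part from that choice. Of 1255 genes at 100 CPM or more in tenocytes of both libraries, 25 were at least 10-fold higher than in FAPs in both. Apart from the rule genes they included matrix genes, secreted regulators and channels. Wif1, a secreted Wnt inhibitor, was at 215 CPM in Ctrl and 190 CPM in dKO tenocytes, while FAPs held only 2 and 1 UMIs of it in all. Col22a1, a collagen of the myotendinous junction, was at 159 and 105 CPM against 0.214 and 0.462 CPM in FAPs. Chodl (chondrolectin), a membrane lectin, was at 693 and 337 CPM against 1.5 and 2.18 CPM. Col11a2, a fibrillar collagen chain that assembles with Col11a1, was at 117 and 163 CPM against 1.07 and 0.528 CPM. Further members were Ptx4, a pentraxin, at 219 and 145 CPM, Matn4, a matrilin, at 149 and 171 CPM, Hbegf, an EGF receptor ligand, at 735 and 675 CPM, Kcnma1, the pore subunit of the BK potassium channel, at 155 and 182 CPM, Ccdc3 at 333 and 430 CPM and Gas2 at 170 and 150 CPM. Comp was at 1543 and 2238 CPM in tenocytes and at 57.8 and 127 CPM in FAPs. In the other direction, 3 of 1378 genes at 100 CPM or more in FAPs were at least 10-fold lower in tenocytes of both libraries: the chemokine Cxcl5 (2.51 and 27.4 CPM against 435 and 619), Cd248 (endosialin, 10.7 and 8.55 CPM against 226 and 265) and Procr (5.65 and 16.2 CPM against 105 and 218). Pdgfra, the defining FAP gene, was at 60.9 and 71.8 CPM in tenocytes against 361 and 327 CPM in FAPs, which the FAP rule had used.

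Tenocytes were not uniform, and several genes split along Chad. Among the 230 thinned tenocytes of both libraries, Chad was found in 73 of 137 Ctrl cells (53.3%, 44.6-61.9%) and 53 of 93 dKO cells (57.0%, 46.3-67.2%), reaching 27 and 28 UMIs. Chad was itself one of the rule genes, as were Fmod and Cilp2, so their correlations with Chad below are a description. A cell without Chad in its full counts could enter only with at least 2 UMIs of Tnmd and Kera together. Across the 230 cells, which share 2 libraries and 1 depth, Angptl7 (Spearman rho 0.71), Comp (0.71), Fmod (0.66), 1500015O10Rik (0.66), Crispld2 (0.61), Serpinf1 (0.60), Wif1 (0.57), Prelp (0.57), Dcn (0.56) and Cilp2 (0.56) went with Chad. Against Chad went Postn (-0.65), Col4a2 (-0.58), Itih5 (-0.58), Col4a1 (-0.57), Basp1 (-0.57), Chodl (-0.57), Mmp14 (-0.52), Sparcl1 (-0.51), Col6a3 (-0.50) and Col3a1 (-0.47). These include periostin, both chains of the common basement membrane collagen, an inter-alpha-trypsin inhibitor, a membrane collagenase and type III collagen. The sign was the same in each library for every gene named here.

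The split was seen in the shares of cells as well. Postn was found in 32.9% of Ctrl and 18.9% of dKO cells with Chad, against 85.9% and 90% of those without. Col22a1 was found in 4.11% and 3.77% of cells with Chad and in 40.6% and 32.5% of those without. Wif1 did the reverse, with 53.4% and 45.3% of cells with Chad and 4.69% and 2.50% of those without. Comp was found in 89.0% and 94.3% of cells with Chad and in 34.4% and 50% of those without. By contrast, Scx (rho 0.01) and Thbs4 (rho -0.06) were spread over both ends, so neither followed the split. Grouped instead by their full counts, 86 Ctrl and 62 dKO tenocytes held Chad and 55 and 44 did not. In these groups FAP markers summed to 909 CPM in Ctrl and 1457 CPM in dKO tenocytes with Chad and to 1369 and 998 CPM in those without, and Pdgfra stood at 36.1 and 65.3 CPM with Chad and 96.8 and 80.1 CPM without. Chondrocyte markers summed to 280 and 131 CPM with Chad and to 4.61 and 7.81 CPM without, and synovial lining markers to 5486 and 7185 CPM with and to 1687 and 4153 CPM without. Endothelial markers were at 18.1 and 10.6 CPM with Chad and at 81.4 and 9.77 CPM without, smooth muscle and pericyte markers at 74.4 and 53.2 CPM with and at 141 and 56.7 CPM without, and macrophage markers at 109 and 68.4 CPM with and at 158 and 74.2 CPM without. Single Ctrl cells held 135 of the 266 Ctrl chondrocyte UMIs, 37 of the 70 endothelial UMIs and 49 of the 162 smooth muscle and pericyte UMIs. The Ctrl sums of these lists thus rest in part on 1 cell each. The part of all these marker genes in the split was not tested. Median depth before thinning was 9306 and 10675 UMIs in cells with Chad and 12107 and 10785 in those without.

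**Figure D2:**
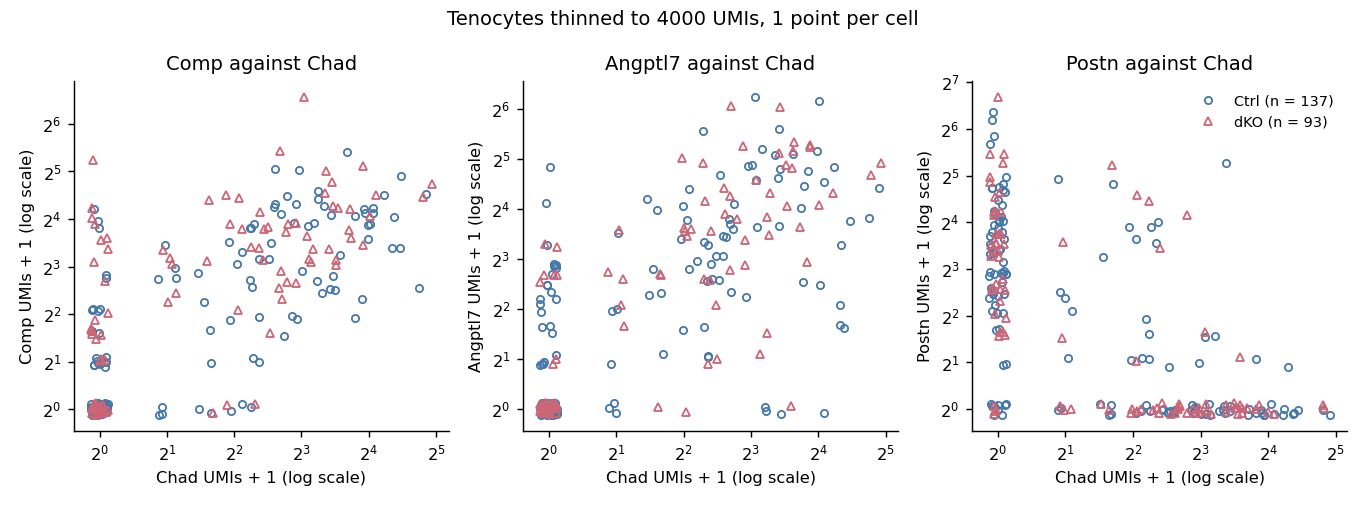
UMIs plus 1 of Comp, Angptl7 and Postn (vertical axes, log scale) against Chad (horizontal axes, log scale) in tenocytes thinned to 4000 UMIs, 1 point per cell with a small random shift to separate ties, 137 Ctrl (circles) and 93 dKO (triangles) cells. Comp and Angptl7 are higher in cells with more Chad, and most Postn lies in cells with no Chad, in both libraries.

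A second pattern ran through immediate early and heat shock genes. The 18 tested immediate early genes summed to between 1 and 542 UMIs per thinned Ctrl cell and between 1 and 303 per dKO cell, with medians of 54 and 38. Over the 230 cells this sum went with that of the 14 heat shock genes (rho 0.72), and Fos with Egr1 (rho 0.76), while neither sum went with the sum of the fibrillar collagens (rho -0.02 and -0.01). Of 1095 genes with a mean of at least 0.5 UMI, the median variance-to-mean ratio was 1.45. The highest ratios belonged to the ribosomal RNA precursor Rn45s (131), Mmp13 (102), Mgp (70.0), Dcn (49.0), Hspb1 (48.2) and Hsp90aa1 (48.1), followed by Col1a2, Col1a1, Malat1, Spp1, Mt1 and Prg4. Mmp13 and Spp1 were carried by few cells, found in 7.30% of Ctrl and 1.08% of dKO thinned tenocytes and in 12.4% and 12.9%. Mgp, an inhibitor of calcification, by contrast ranged up to 412 UMIs with medians of 32 and 27 per cell.

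dKO and Ctrl tenocytes were then compared over the 3482 genes with at least 100 UMIs in the tenocytes of both libraries together. At 2-fold or more with a counting interval that left out 1, 35 genes (1.01%) were higher and 22 (0.632%) were lower in dKO. At any size, intervals left out 1 for 351 higher (10.1%) and 337 lower genes (9.68%), and the median log2 ratio over all tested genes was -0.01, against -0.03 in FAPs. Ratios were also taken with a looser tenocyte rule (2 of the 7 genes, a sum of 1 and 1 Fmod UMI) and a stricter one (4 genes, a sum of 4 and 5 Fmod UMIs), and some of these are given beside the results. Several of the 2-fold genes rested on single cells. In 15 of them at least 50% of the UMIs of a library came from 1 cell, which was so for 0.546% of all tested genes. Without the 3 cells with most UMIs of each gene in each library, 21 genes (0.603%) stayed past 2-fold higher and 13 (0.373%) lower, while in all 24 genes were then past 2-fold higher and 31 lower. Mmp13, a collagenase, shows how 1 cell sets a ratio: its 810 dKO UMIs (692 CPM, against 138 CPM in Ctrl) came from 3 cells, 807 of them from 1. Likewise 241 of 318 Ctrl UMIs of Slpi, 262 of 311 of Cxcl10, 303 of 546 of Ifit1, 100 of 101 of Saa3 and 90 of 115 of Col2a1, and 141 of 200 dKO UMIs of Ctla2a, 77 of 92 of Arc, 52 of 79 of Dkk2 and 81 of 82 of Klk1, came from 1 cell each.

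**Figure D3:**
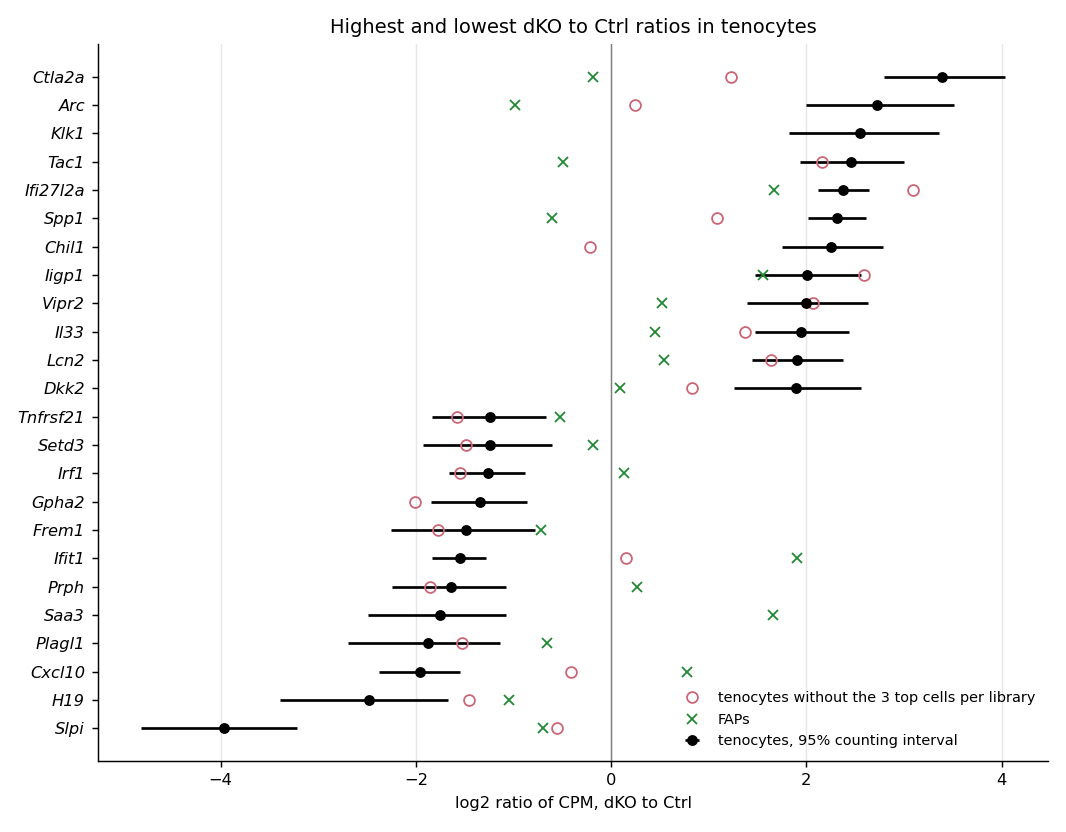
Log2 ratios of CPM, dKO to Ctrl, for the 12 highest and 12 lowest genes of the naming rule (black circles with 95% counting intervals), the same without the 3 cells with most UMIs in each library (open red circles) and the FAP ratio (green crosses). Klk1 and Saa3 have no value without the 3 cells, and Klk1, Gpha2 and Chil1 have none in FAPs. Of the 12 highest, Ifi27l2a, Iigp1, Tac1, Vipr2, Lcn2, Il33, Ctla2a and Spp1 keep ratios past 1 without those cells. Arc, Chil1, Cxcl10, Ifit1 and Slpi move to between -0.55 and 0.25.

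Of the 20 lists, that of interferon-responsive genes had the highest median ratio. Type I and type II interferons bind receptors that activate STAT factors, and STAT and IRF complexes then switch on antiviral proteins, GTPases and the MHC class I machinery, in stromal as in immune cells. Ifi27l2a, a small interferon-inducible membrane protein, had 152 UMIs in 39 of 141 Ctrl tenocytes (95.5 CPM, 80.9-112) and 581 UMIs in 70 of 106 dKO tenocytes (497 CPM, 457-539). At 4000 UMIs per cell it was found in 17.5% of Ctrl and 52.7% of dKO tenocytes, and the log2 ratio was 2.38 (2.12 to 2.65). No single cell made this difference, since the ratio was 3.09 without the 3 top cells of each library. FAPs of the same libraries stood at 410 and 1300 CPM (log2 ratio 1.67). Bst2 (tetherin), which holds budding viruses at the cell surface, had 293 UMIs in 86 Ctrl cells (184 CPM) and 674 in 90 dKO cells (576 CPM). It was found in 44.5% and 69.9% of thinned tenocytes, and its log2 ratio was 1.65 (1.45 to 1.85), against 1.13 in FAPs. For these genes leukocytes give no background, since they express them (Ifi27l2a in 79.1% and 93.8% of thinned cells with Ptprc). The shares of tenocytes with a UMI of interferon-responsive genes therefore stand without a background level, and the part of free RNA in them and in the CPM was not tested.

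**Figure D4:**
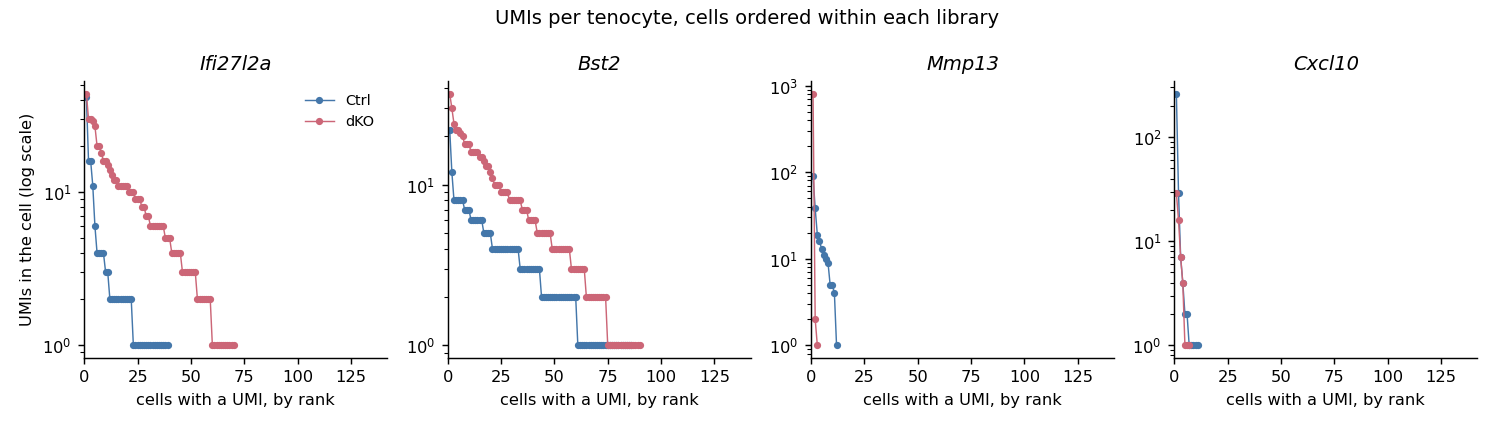
UMIs per tenocyte (log axis) with cells ordered from the highest within each library, for cells with at least 1 UMI of Ifi27l2a, Bst2, Mmp13 or Cxcl10, Ctrl in blue and dKO in red. The dKO curves of Ifi27l2a (70 cells) and Bst2 (90 cells) lie above the Ctrl curves (39 and 86 cells) over most of the range, whereas Mmp13 in dKO and Cxcl10 in Ctrl are set by 1 cell with 807 and 262 UMIs.

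Over the interferon list, 12 of 37 genes were tested, 4 were 2-fold higher in dKO (Bst2, Gbp7, Iigp1 and H2-K1) and 1 was lower (Ifit1), against 1.01% and 0.632% of all tested genes. At any size intervals left out 1 for 9 higher and 1 lower, against 10.1% and 9.68% of all, and the median log2 ratio was 0.73, against 0.88 for the same genes in FAPs. Ifi27l2a is not on that list. The GTPase Iigp1 was at 25.1 and 101 CPM (log2 ratio 2.0, 1.48 to 2.56; 3.75 under the stricter rule and 2.67 without the top cell) and the guanylate-binding protein Gbp7 at 28.9 and 70.1 CPM (1.28, 0.74 to 1.83; 2.06 as the mean of each cell's own CPM and 2.76 with the highest doublet scores left out). The MHC class I chains H2-K1 and H2-D1 were at 223 and 454 CPM (1.03, 0.83 to 1.22; 0.88 under the stricter rule) and at 460 and 669 CPM (0.54, 0.39 to 0.69), and their light chain B2m at 553 and 913 CPM (0.72, 0.59 to 0.85). B2m was found in 79.6% and 93.5% of thinned tenocytes, and H2-K1 in 48.2% and 79.6%. Ifitm3, which blocks viral entry, was at 877 and 1452 CPM (0.73, 0.62 to 0.83). The sum of the list per thinned cell had a median of 9 in Ctrl (quartiles 7 and 14) and 19 in dKO (quartiles 13 and 26), so the difference lay in the bulk of the cells. Isg15, a ubiquitin-like modifier, was at 104 and 88.0 CPM (-0.24, -0.61 to 0.13), but at 0.89 without the 3 top cells and 1.03 under the looser rule, so its direction was not settled. Ifit1 was at 343 and 117 CPM (-1.55, -1.83 to -1.28), which turned to 0.15 without the 3 top cells. Irf1, an activator of interferon targets that is not on the list either, was lower at 154 and 64.1 CPM (-1.26, -1.66 to -0.88), found in 23.4% and 12.9% of thinned cells, and at -1.55 without the 3 top cells, but at -0.19 under the looser rule, and in FAPs it was at 0.13. The macrophage markers summed to 129 CPM in Ctrl and 70.9 CPM in dKO tenocytes, and their part in these levels was not tested.

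Within the tenocytes the difference was present at both ends of the Chad split, with cells grouped by their full counts. Ifi27l2a was at 37.2 CPM in Ctrl and 406 CPM in dKO cells with Chad (log2 ratio 3.45, 2.94 to 4.0) and at 180 and 613 CPM in those without (1.77, 1.46 to 2.09). Bst2 was at 152 and 571 CPM with Chad (1.91, 1.63 to 2.20) and at 230 and 582 CPM without (1.34, 1.05 to 1.63). The promoters of 3 of the genes that were higher are shown since they hold the letters of the interferon-stimulated response element (ISRE), GAAANNGAAA or TTTCNNTTTC on the other strand, given in capitals. The motif was in 2.98% of all 32851 promoters of 250 bases and in 6 of the 10 tested list genes that had an entry (B2m, Bst2, Gbp7, Ifit1, Ifit3 and Isg15, and not H2-D1, H2-K1, H2-Q4 and Ifitm3). The sequences come from RefSeq (GRCm38.p6), Bst2 from chr8:71537473-71537722 (- strand, 2 overlapping matches 114 and 120 bases before the start), Gbp7 from chr3:142530086-142530335 (+ strand, 43 bases) and B2m from chr2:122147437-122147686 (+ strand, 129 bases), and no entry for Ifi27l2a or Iigp1 was found.
Bst2: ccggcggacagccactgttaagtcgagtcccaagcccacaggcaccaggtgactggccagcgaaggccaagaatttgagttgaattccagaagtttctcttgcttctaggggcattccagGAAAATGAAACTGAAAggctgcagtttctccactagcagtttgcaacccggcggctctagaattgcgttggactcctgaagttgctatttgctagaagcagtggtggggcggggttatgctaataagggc
Gbp7: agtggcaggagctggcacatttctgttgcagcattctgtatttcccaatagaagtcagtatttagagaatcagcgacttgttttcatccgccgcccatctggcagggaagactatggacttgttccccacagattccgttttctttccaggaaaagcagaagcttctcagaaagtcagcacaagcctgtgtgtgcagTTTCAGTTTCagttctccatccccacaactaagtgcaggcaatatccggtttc
B2m: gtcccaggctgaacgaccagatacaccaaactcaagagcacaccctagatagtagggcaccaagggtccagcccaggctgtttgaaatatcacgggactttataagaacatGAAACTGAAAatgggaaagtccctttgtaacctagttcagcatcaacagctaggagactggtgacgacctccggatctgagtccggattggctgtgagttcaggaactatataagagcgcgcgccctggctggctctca

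Fibrillar collagens differed by little and mostly upward. Of 9 tested fibrillar collagen genes 6 had an interval above 1 and 1 below (10.1% and 9.68% of all tested genes), 0 were 2-fold higher and 1 was 2-fold lower (Col2a1, set by 1 Ctrl cell). Variance-to-mean ratios between thinned cells were 44.6 for Col1a2 and 43.7 for Col1a1, against a median of 1.45 over genes. The counting intervals do not cover that spread, so the shares of all tested genes are not a like background here. The median log2 ratio was 0.22 in tenocytes and -0.40 in FAPs. Col1a1 and Col1a2, the chains of tendon's main collagen, were at 11717 and 13653 CPM (0.22, 0.19 to 0.25) and at 14551 and 18485 CPM (0.35, 0.32 to 0.37) in tenocytes, while in FAPs their log2 ratios were -0.47 and -0.31. Under the looser rule Col1a1 came to 0.07. Col3a1, the finer collagen of repair tissue, was at 4337 and 5437 CPM (0.33, 0.28 to 0.38), but at 0.0434 under the stricter rule, and at -0.38 in FAPs. The sum of the fibrillar collagens had a median of 91 UMIs per thinned Ctrl cell (quartiles 57 and 143) and 118 per dKO cell (76 and 188), so the per-cell ranges overlapped widely. Among tenocytes grouped by Chad in their full counts, Col3a1 was at 3082 and 2796 CPM in cells with Chad (-0.14, -0.23 to -0.06) and at 6151 and 8832 CPM in those without (0.52, 0.46 to 0.58). Grouped by Chad after thinning, its means were 6.89 UMIs per Ctrl cell and 7.79 per dKO cell with Chad, and 21.1 and 28.9 without, so its direction in cells with Chad depended on the grouping. Periostin by full counts was at -0.85 (-1.0 to -0.70) with Chad and at 0.47 (0.38 to 0.55) without, and after thinning its means were 2.73 and 2.42 UMIs per cell with Chad and 13 and 14.1 without, a smaller difference at both ends. Over all tenocytes its ratio changed sign under the looser and the stricter rule and without the 3 top cells (values below).

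Genes that fold, process and export collagen were more often above than below as well. Of 25 tested collagen-processing genes 8 had an interval above 1 and 0 below (median log2 ratio 0.15, FAPs -0.14), and of 24 secretory pathway genes 10 were above and 1 below (median 0.18, FAPs -0.01), while 0 in either list passed 2-fold. The lysyl hydroxylase Plod2 was at 225 and 323 CPM (0.52, 0.31 to 0.74), and Creb3l1, a transcription factor of the secretory pathway, at 97.4 and 137 CPM (0.49, 0.16 to 0.82). The cross-linking enzyme Lox was at 1441 and 1702 CPM (0.24, 0.15 to 0.33), the collagen chaperone Serpinh1 at 1535 and 1740 CPM (0.18, 0.10 to 0.27) and the cargo receptor Lman1 at 184 and 255 CPM (0.47, 0.23 to 0.71). Against the 10.1% and 9.68% of all tested genes, these lists held more genes above than below, but each change was small and none has a replicate check.

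Among noncollagenous matrix genes, 12 of 37 tested had an interval above 1 and 8 below, where 10.1% and 9.68% of all tested genes did, and Eln was the 1 past 2-fold. Comp was higher in dKO with no overlap of intervals, at 1543 CPM (1483-1605) in Ctrl and 2238 CPM (2153-2325) in dKO, a log2 ratio of 0.54 in tenocytes and 1.14 in FAPs. In cells without Chad by full counts Comp was at 257 and 975 CPM (1.93, 1.67 to 2.19), and in those with it at 2433 and 3220 CPM (0.40, 0.32 to 0.49). After thinning, cells without Chad had a median of 0 Comp UMIs in Ctrl and 0.5 in dKO, with means of 1.3 and 3.7. Much of the ratio without Chad thus lay in a part of the cells. Eln (elastin) was at 122 and 347 CPM (1.51, 1.26 to 1.76) in 26 and 31 cells, 147 of the 406 dKO UMIs in 1 of them, and was still at 1.32 without the 3 top cells. Prg4 was at 3114 and 5012 CPM (0.69, 0.63 to 0.74), against 1.41 in FAPs. Smoc2, a calcium-binding matrix protein, was lower at 327 and 171 CPM (-0.94, -1.18 to -0.70; -0.33 under the looser rule). Of 11 leucine-rich proteoglycan genes 4 were above and 1 below, among them Ogn (osteoglycin) at 1519 and 2023 CPM (0.41, 0.33 to 0.50) and Aspn (asporin) at 1956 and 2528 CPM (0.37, 0.30 to 0.44), while Dcn (decorin) was at 15119 and 15315 CPM (0.02, -0.01 to 0.05). Of 13 fibril-associated and beaded collagens 3 were above and 5 below, with Col22a1 at 159 and 105 CPM (-0.60, -0.92 to -0.28; -1.27 without the 3 top cells) and Col4a1 at 903 and 785 CPM (-0.20, -0.32 to -0.08). In the matrix degradation list 3 of 14 were above and 2 below, and Timp1, an inhibitor of matrix proteases, was at 838 and 1605 CPM (0.94, 0.84 to 1.04).

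The tendon sheath and progenitor list had 8 of 11 tested genes above and 0 below, beside 10.1% and 9.68% of all tested genes, with a median log2 ratio of 0.50 (FAPs 0.27). Ly6a (Sca-1) was at 205 and 480 CPM (1.23, 1.03 to 1.43), found in 19.7% and 39.8% of thinned tenocytes, against 1397 and 2499 CPM in FAPs (0.84). Cells with Ptprc went the same way, with Ly6a in 13.2% and 40.7% of them after thinning, and Ly6a is known to be interferon-inducible. Has1, a hyaluronan synthase, was at 74.1 and 162 CPM (1.13, 0.79 to 1.48) in 32 and 24 cells, but at 0.49 under the looser rule and 0.62 as the mean of each cell's own CPM. Sfrp2, a secreted Wnt modulator of the growth factor list, was at 104 and 281 CPM (1.43, 1.16 to 1.71) in 23 and 24 cells. In the TGF-beta and BMP list 6 of 24 were above and 6 below, with Inhba (activin A subunit) at 60.3 and 125 CPM (1.05, 0.67 to 1.44; 0.49 under the looser rule and 0.55 without the 3 top cells) and Ltbp2 at 72.2 and 132 CPM (0.87, 0.51 to 1.23; 0.36 under the looser rule), and Htra3 lower at 133 and 74.4 CPM (-0.83, -1.21 to -0.47). Vipr2, a receptor of vasoactive intestinal peptide, was at 19.5 and 77.8 CPM (2.0, 1.40 to 2.64), spread over 22 of 141 and 49 of 106 tenocytes with no more than 4 and 10 UMIs in any of them.

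More immediate early genes and tendon regulators were below than above 1 in dKO. Of 18 tested immediate early genes 1 had an interval above 1 and 13 below, against 10.1% and 9.68% of all tested genes, and 0 passed 2-fold, with a median log2 ratio of -0.35 (FAPs -0.09). Variance-to-mean ratios between thinned cells were 33.7 for Fos and 27.0 for Egr1, against a median of 1.45 over genes. The counting intervals do not cover that spread, so the shares of all tested genes are not a like background. Egr1, which also drives collagen genes in tendon, was at 3510 and 2726 CPM (-0.36, -0.43 to -0.30), Junb at 2039 and 1612 CPM (-0.34, -0.42 to -0.26), Nr4a1 at 442 and 228 CPM (-0.95, -1.16 to -0.75) and Klf4 at 545 and 350 CPM (-0.64, -0.81 to -0.47; -0.22 as the mean of each cell's own CPM). Fos was at 2855 and 2563 CPM (-0.16, -0.22 to -0.09), but at 0.0434 under the stricter rule. Of 11 tested tendon regulators 1 was above and 5 below (median -0.35, FAPs 0.02), and Egr1 made up 54.2% of the UMIs of that list. Both lists hold Egr1, Egr2, Klf2 and Klf4, which were 4 of those 5, so they are not separate results. In the mechanical response list 2 of 20 were above and 4 below, with the matricellular genes Ccn1 at 1483 and 1135 CPM (-0.39, -0.48 to -0.29; -0.13 as the mean of each cell's own CPM) and Ccn2 at 2145 and 1566 CPM (-0.45, -0.54 to -0.37). Heat shock genes were split (3 above and 5 below of 14, median 0.01). Per-cell ranges of the immediate early sum overlapped almost wholly between the libraries.

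Chodl, among the 25 genes at least 10-fold higher in tenocytes than in FAPs, was lower in dKO. It had 1103 UMIs in 80 Ctrl tenocytes (693 CPM) and 394 UMIs in 45 dKO tenocytes (337 CPM), a log2 ratio of -1.04 (-1.21 to -0.87; -0.70 as the mean of each cell's own CPM), and was found in 48.9% and 33.3% of thinned cells against 0.0742% and 0.423% of cells with Ptprc. It was lower at both ends of the Chad split by full counts, at 252 and 74.5 CPM with Chad (-1.76, -2.23 to -1.31) and at 1330 and 674 CPM without (-0.98, -1.16 to -0.80). Grouped by Chad after thinning, its means were 0.877 UMIs per Ctrl cell and 0.585 per dKO cell with Chad, and 5.92 and 2.925 without. The difference in cells with Chad was smaller by that grouping. Slc5a3, the myo-inositol transporter, was at 526 and 244 CPM (-1.11, -1.31 to -0.91; -0.86 under the looser rule) in 92 and 61 cells. Frem1, a basement membrane protein, was at 50.3 and 17.9 CPM (-1.49, -2.25 to -0.78) and Prph, the intermediate filament peripherin, at 85.4 and 27.4 CPM (-1.64, -2.25 to -1.08), the latter at -0.79 as the mean of each cell's own CPM. Setd3, the actin histidine methyltransferase, was at 54.7 and 23.1 CPM (-1.24, -1.92 to -0.61; -0.61 under the looser rule), spread over 62 and 21 cells with at most 4 UMIs in any. Yy1, the gene deleted in MuSCs, was at 162 and 152 CPM in tenocytes (-0.09, -0.38 to 0.19).

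Several chemokine and cytokine genes rested on few cells. Of 19 tested, 7 had an interval above 1 and 5 below, against 10.1% and 9.68% of all tested genes. The median log2 ratio was 0.12 (FAPs 0.40), and 0.0025 without the 3 top cells. At 2-fold or more, 6 were higher and 2 lower (Cxcl10 and Saa3), against 1.01% and 0.632% of all tested genes. Both lower genes changed sign with the rule, Cxcl10 to 0.24 under the looser and 0.78 under the stricter one (-0.25 without 1 cell) and Saa3 to 0.0064 under the looser one. Il33, an alarmin, was at 32.0 and 123 CPM (1.94, 1.47 to 2.43; 1.31 under the looser rule) in 22 and 19 cells, Lcn2 (lipocalin 2) at 34.6 and 129 CPM (1.90, 1.45 to 2.37) in 19 and 16 cells, and Cxcl1 at 286 and 718 CPM (1.33, 1.16 to 1.49) in 55 and 40 cells, the last at 0.48 without the 3 top cells. After thinning Il33 was found in 5.84% and 10.8% of tenocytes, Lcn2 in 9.49% and 14% and Cxcl1 in 31.4% and 30.1%. Medians of 0.03 and 0.00 were found for complement (7 tested) and cell cycle genes (6 tested). Of 9 metallothionein and glucocorticoid-responsive genes 3 were above and 1 below at any size (10.1% and 9.68% of all tested genes; median 0.17), and of 24 growth factor signaling genes 9 were above and 2 below (median 0.10), with Sfrp2, Igfbp3 and Dkk2 past 2-fold, of which Igfbp3 came to 0.25 and Dkk2 to 0.83 without the 3 top cells. Of 2 tested fibrocartilage genes, Spp1 (osteopontin) was at 2.31, but at 1.09 without the 3 top cells, with 120 UMIs in 37 Ctrl and 438 in 18 dKO cells, 143 of the latter in 1 of them. Col2a1 was at -1.88, but at 0.07 without the 3 top cells.

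**Figure D5:**
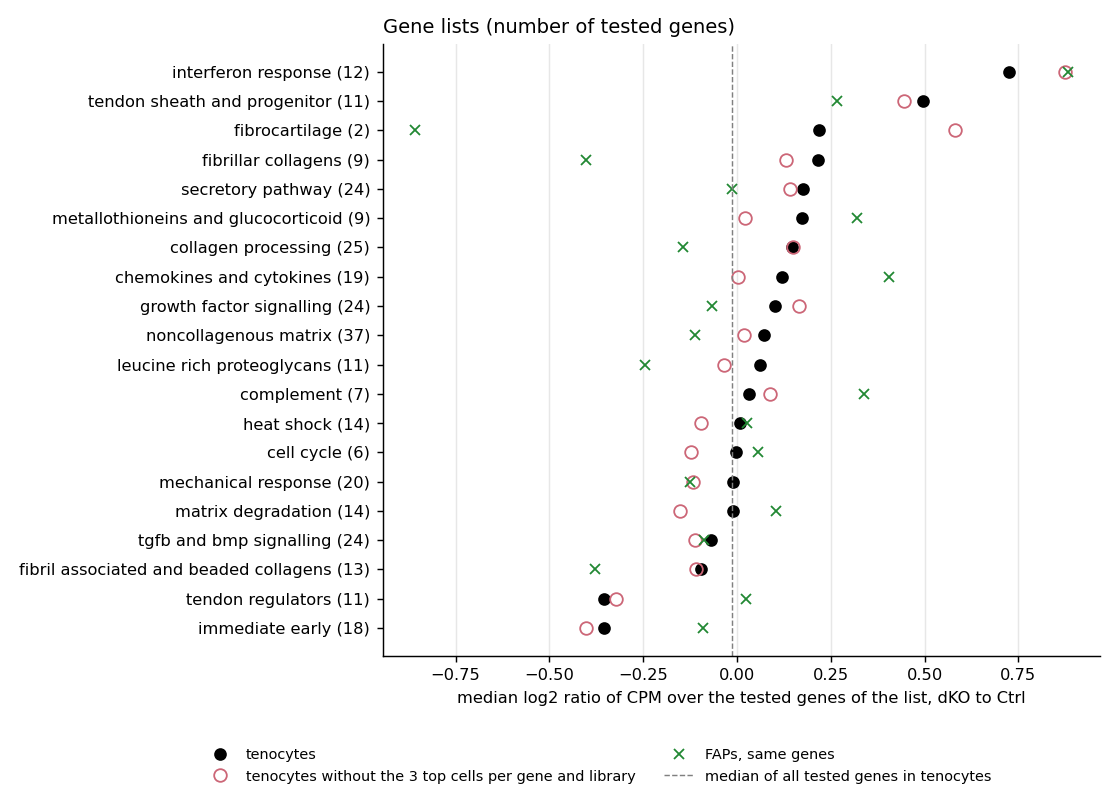
Median log2 ratio of CPM, dKO to Ctrl, over the tested genes of 20 lists in tenocytes (black), in tenocytes without the 3 cells with most UMIs of each gene and library (open red) and in FAPs (green crosses), with the number of tested genes in brackets and the median of all tested genes as a dashed line. The interferon list lies highest at 0.73, immediate early genes and tendon regulators lowest at -0.35, and fibrillar collagens lie at 0.22 in tenocytes and -0.40 in FAPs.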

How the data were processed

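The authors prepared droplet libraries from live cells sorted after collagenase and dispase digestion and red cell lysis of hind limb muscle, and deposited a table of UMI counts for each library with 24984 gene symbols, 0 of them mitochondrial. Cell Ranger 3.0.2 made the counts, per the file headers, whereas the submitters' processing notes name Cell Ranger 7.0.0, Seurat 4.3.0 and Cufflinks. The counts had not been normalized. The members and the gene lists used here (20 functional lists and 14 marker lists) were chosen with earlier results of these data known, which support nothing on their own. The result of 1 marker list is not reported here.

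Raw counts were summed over the tenocytes of each library and scaled to CPM. Ratios were computed for genes with at least 100 UMIs in tenocytes, with exact conditional binomial intervals, and intervals of share differences were built from the exact binomial bounds of each share. Genes are named by fixed rules: the marker and rule genes, the 12 highest and 12 lowest dKO to Ctrl ratios that kept their direction in the mean of each cell's own CPM and without the top cell, up to 4 genes per list by UMIs and 4 by ratio, the 20 highest ratios to FAPs and the 12 most variable genes. Genes outside these rules, such as Postn, Itih5, Rpl34 and Pdgfra, were chosen after their values were seen. Doublets were scored per library with Scrublet in scanpy 1.11.5 (30 principal components). Its own threshold called only 4 Ctrl and 14 dKO cells, and no cell was removed. The paper reports 4335 and 3329 cells after filtering and doublet removal, the same numbers as the cells with at least 500 genes here. Whether doublets had been removed before was not tested. Leaving out the 7.5% with the highest scores removed 7 and 14 tenocytes and is an alternative. Python 3.11.15, numpy 2.4.6, scipy 1.17.1 and pandas 2.3.3 were used, and the sums and intervals were tested on simulated data. Gene promoters are those of RefSeq (GRCm38.p6).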

Additional observations from a re-analysis of the deposited data

How the results depend on the processing

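With 1 library per group no value here has a replicate check, and no paired analysis was possible because each group has 1 library. The tenocyte share kept an interval that includes 0 under all 6 alternatives, from -0.534 to 0.192 percentage points. The counts of genes past 2-fold (35 higher, 22 lower) moved to 71 higher with a looser tenocyte rule, to 122 and 155 with at least 30 UMIs per gene, to 13 and 7 with at least 300 UMIs, and to 106 and 125 at 1.5-fold. Of 700 recomputed ratios of 88 named genes 544 stayed inside the counting interval of the reported value, 145 left it and 11 changed sign in genes whose reported interval left out 0. In 22 more the sign changed in a gene whose reported interval includes 0, among them Isg15 in 6 of 8 alternatives (0.25 to 1.03). The cause was not tested. The 11 were Arc to -0.31 without the highest doublet scores, Chil1 to -0.21 and Ifit1 to 0.15 without the 3 cells with most UMIs, Cxcl10 to 0.24 with the looser and 0.78 with the stricter rule, Fos to 0.0434 with the stricter rule, Postn to -0.26 with the looser rule, -0.31 with the stricter rule and -0.0145 without the 3 cells, Saa3 to 0.0064 with the looser rule, and Thbs4 to 0.0223 as the mean of each cell's own CPM. The alternatives without 3 cells and with Rn45s left out of the totals were added after the data were seen. That without 1 cell was planned for the ratios of genes, but was added afterwards for the counts of genes past 2-fold.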

Other observations

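Some genes differed in the share of tenocytes that held them, outside the lists above. Rpl34, a ribosomal protein of the large subunit, was found in 74.5% (66.3-81.5%) of thinned Ctrl and 43.0% (32.8-53.7%) of dKO tenocytes, at 351 and 207 CPM (log2 ratio -0.76, -0.99 to -0.54), and its log2 ratio in FAPs was -0.70. Ribosomal protein genes share reads with near-identical copies, so this value is uncertain. Ly6e, an interferon-inducible surface protein, was found in 35.8% and 65.6% of thinned tenocytes, at 197 and 462 CPM (1.23, 1.03 to 1.44), and stood at 0.71 in FAPs. Both were named after their values were seen.

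H19, an imprinted noncoding RNA, had 106 UMIs in 10 Ctrl tenocytes and 14 UMIs in 6 dKO tenocytes (log2 ratio -2.48, -3.40 to -1.67; FAPs -1.05), and was at -1.45 without the 3 top cells and at -1.42 under the looser rule. Plagl1, a zinc finger factor, had 90 UMIs in 22 and 18 UMIs in 12 cells (-1.88, -2.70 to -1.14; FAPs -0.65). Cdkn1c, a cell cycle inhibitor, was at 240 and 200 CPM (-0.26, -0.50 to -0.02; FAPs -0.93). Tac1, the precursor of substance P, was at 24.5 and 134 CPM (2.45, 1.94 to 3.0; 1.05 under the looser rule) in 13 and 15 cells, against -0.50 in FAPs. Gpha2, a glycoprotein hormone subunit, was at 102 and 40.2 CPM (-1.34, -1.84 to -0.86; -2.23 as the mean of each cell's own CPM and -2.0 without the 3 top cells) in 12 and 5 cells.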
